A study of Mus musculus with 4 samples.

Results

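Fos, Fosb, Fosl2, Jun, Junb, Egr1, Egr3, Egr4, Ier2 and Btg2 are rapidly induced immediate early genes. They were taken by name, with earlier results of these data known. All 10 were listed in each library, among 20211 gene symbols that the libraries shared. Their UMIs (unique molecular identifiers, each standing for 1 captured RNA molecule) were followed through 5 marker-gated classes of neuron and 5 interneuron subtypes of the mouse hippocampus.

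Immediate early genes are switched on within minutes of a stimulus by transcription factors that are already in the cell, so no new protein is needed first. Fos and Jun family proteins pair through leucine zippers into AP-1, while Egr proteins bind GC-rich sites through zinc fingers. Btg2 is an antiproliferative co-regulator and Ier2 a small nuclear protein. In the hippocampus these RNAs appear briefly after neurons fire, and Fos and Egr1 are widely read as marks of recent activity.

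Nuclei came from 4 libraries of hippocampus, 1 for each genotype in the labels. These were wild type, a total (global) MAGL knockout, an astrocyte specific MAGL knockout and a neuron specific MAGL knockout. MAGL, monoacylglycerol lipase, is encoded by Mgll and degrades the endocannabinoid 2-arachidonoylglycerol, and the series title asks what an excess of endocannabinoids in neurons does to cognition. No treatment is named in the labels. No source used here gives the driver of each cell-specific knockout, the age and number of animals in a library or their handling before tissue was taken. Each genotype is 1 library, so there is no replicate check and no test, and every interval below is a 95% interval that covers counting error only. The intervals of levels and ratios treat each UMI as independent. Since 1 nucleus can hold several UMIs of a gene, they can be too narrow even within a library.

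Mgll itself stood at 73.1 to 140.2 CPM over the 5 classes in wild type, 51.9 to 110.5 in the library labelled total knockout, 79.4 to 158 in that labelled astrocyte knockout and 75.4 to 139 in that labelled neuron knockout. CPM is the usual depth-scaled count, the UMIs of a gene relative to all UMIs of the class. The total knockout label went with a lower value in 5 of 5 classes, with log2 ratios to wild type from -0.49 to -0.13, and the neuron knockout label did not, with ratios from -0.04 to 0.14. No source used here gives the deleted part of the gene, so this does not check the labels. The knockout libraries are named by label below, as total-, astrocyte- and neuron-labelled. After filtering, 59713 nuclei remained, 8835 to 30924 per library, with median UMIs per nucleus of 8938, 5493, 7484 and 8501 in wild type, total-, astrocyte- and neuron-labelled, the order of values used throughout. The total-labelled library held 8 nuclei called female against 25819 called male, and the other 3 held 40.7% to 46.4% female nuclei. Pairs of libraries shared 108 to 466 cell barcodes, at most 4.63% of the smaller library.

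Upstream sequence is shown here for Fos, Junb, Egr4 and Btg2, 4 of the 5 members whose window holds the motif marked below, and for Jun, whose window does not. Each line is the 250 bases before the RefSeq start of the gene in GRCm38.p6, written 5′ to 3′ on the gene's own strand. Capitals mark TGACG or its reverse complement CGTCA, the core of the cAMP response element through which CREB acts on many of these genes.
Fos, chr12:85473640-85473889, plus strand: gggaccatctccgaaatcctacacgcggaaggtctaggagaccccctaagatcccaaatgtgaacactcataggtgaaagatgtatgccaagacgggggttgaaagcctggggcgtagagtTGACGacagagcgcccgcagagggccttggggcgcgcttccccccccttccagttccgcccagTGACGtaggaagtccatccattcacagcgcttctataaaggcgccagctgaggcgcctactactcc
Junb, chr8:84978749-84978998, minus strand: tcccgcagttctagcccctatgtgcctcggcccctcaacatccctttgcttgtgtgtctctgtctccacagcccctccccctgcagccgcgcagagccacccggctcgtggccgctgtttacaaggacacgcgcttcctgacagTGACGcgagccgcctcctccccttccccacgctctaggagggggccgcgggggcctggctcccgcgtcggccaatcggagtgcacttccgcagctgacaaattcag
Egr4, chr6:85513590-85513839, minus strand: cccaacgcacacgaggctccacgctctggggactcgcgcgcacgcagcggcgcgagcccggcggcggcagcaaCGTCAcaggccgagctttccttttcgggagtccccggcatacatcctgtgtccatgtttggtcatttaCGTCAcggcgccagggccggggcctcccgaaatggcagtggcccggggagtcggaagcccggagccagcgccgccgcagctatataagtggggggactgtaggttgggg
Btg2, chr1:134079156-134079405, minus strand: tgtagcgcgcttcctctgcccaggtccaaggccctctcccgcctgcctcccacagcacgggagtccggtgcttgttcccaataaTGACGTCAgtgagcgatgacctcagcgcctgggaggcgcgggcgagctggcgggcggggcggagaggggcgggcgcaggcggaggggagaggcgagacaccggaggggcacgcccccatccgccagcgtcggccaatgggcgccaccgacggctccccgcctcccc
Jun, chr4:95052223-95052472, minus strand: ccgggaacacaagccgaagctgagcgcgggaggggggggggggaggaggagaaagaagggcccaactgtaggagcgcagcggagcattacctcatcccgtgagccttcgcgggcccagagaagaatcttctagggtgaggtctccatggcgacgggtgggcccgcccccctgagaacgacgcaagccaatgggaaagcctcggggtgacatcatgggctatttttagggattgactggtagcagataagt
RefSeq windows were matched for 7 of the 10 members, these 5 and Fosb and Fosl2. TGACG on either strand was found in Fos, Fosb, Junb, Egr4 and Btg2, that is in 5 of 7, beside 17.7% of all 32817 windows of this length. Fos held it at 129 to 125 and at 66 to 62 bases before the start, Egr4 at 177 to 173 and 109 to 105, and Junb at 106 to 102. Btg2 alone held the full palindrome TGACGTCA, at 166 to 159 bases before the start, which 1.55% of windows hold and which contains its 2 overlapping TGACG matches. The AP-1 motif TGANTCA (6.75% of windows), the Egr motif GCGTGGGCG (0.536%) and the CArG box bound by serum response factor (1.47%) were found in none of the 7, searched on both strands. Jun and Fosl2 held none of the motifs searched. A match, or the lack of one, describes these letters only, and bases further upstream were not searched.

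The classes were cut from marker scores and are ranges rather than types. Of all kept nuclei 53.5% entered a neuronal class, and the gates held 9616 dentate granule, 2884 CA1 pyramidal, 3024 CA2/CA3 pyramidal, 8209 subicular or cortical excitatory and 8201 GABAergic nuclei. The summed level of each gate's own markers differed between libraries by at most 1.13 times. The cuts select on these markers, so close sums follow from the gating and do not check the make-up of a class. The CA1 gate depends most on its cut, since 4776 nuclei scored within 0.5 of it. The subicular or cortical gate mixes types, and within it Ndst4 ranged from 166 to 294 CPM and Fn1 from 72.3 to 118 over the libraries. The part of this mixture in the results below was not tested.

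The levels of all 10 members by class and library are plotted together. Of the 50 pairs of member and class, 42 held 100 UMIs or more over the libraries. Among these the astrocyte-labelled library was the lowest of the 4 in 33, beside 27.4% of 64802 such pairs over all genes. The neuron-labelled library was the highest in 25 of the 42, beside 23.4%. Jun departed from this, being highest in wild type in 5 of 5 classes, where 33.7% of all pairs are highest in wild type.

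**Figure D1:**
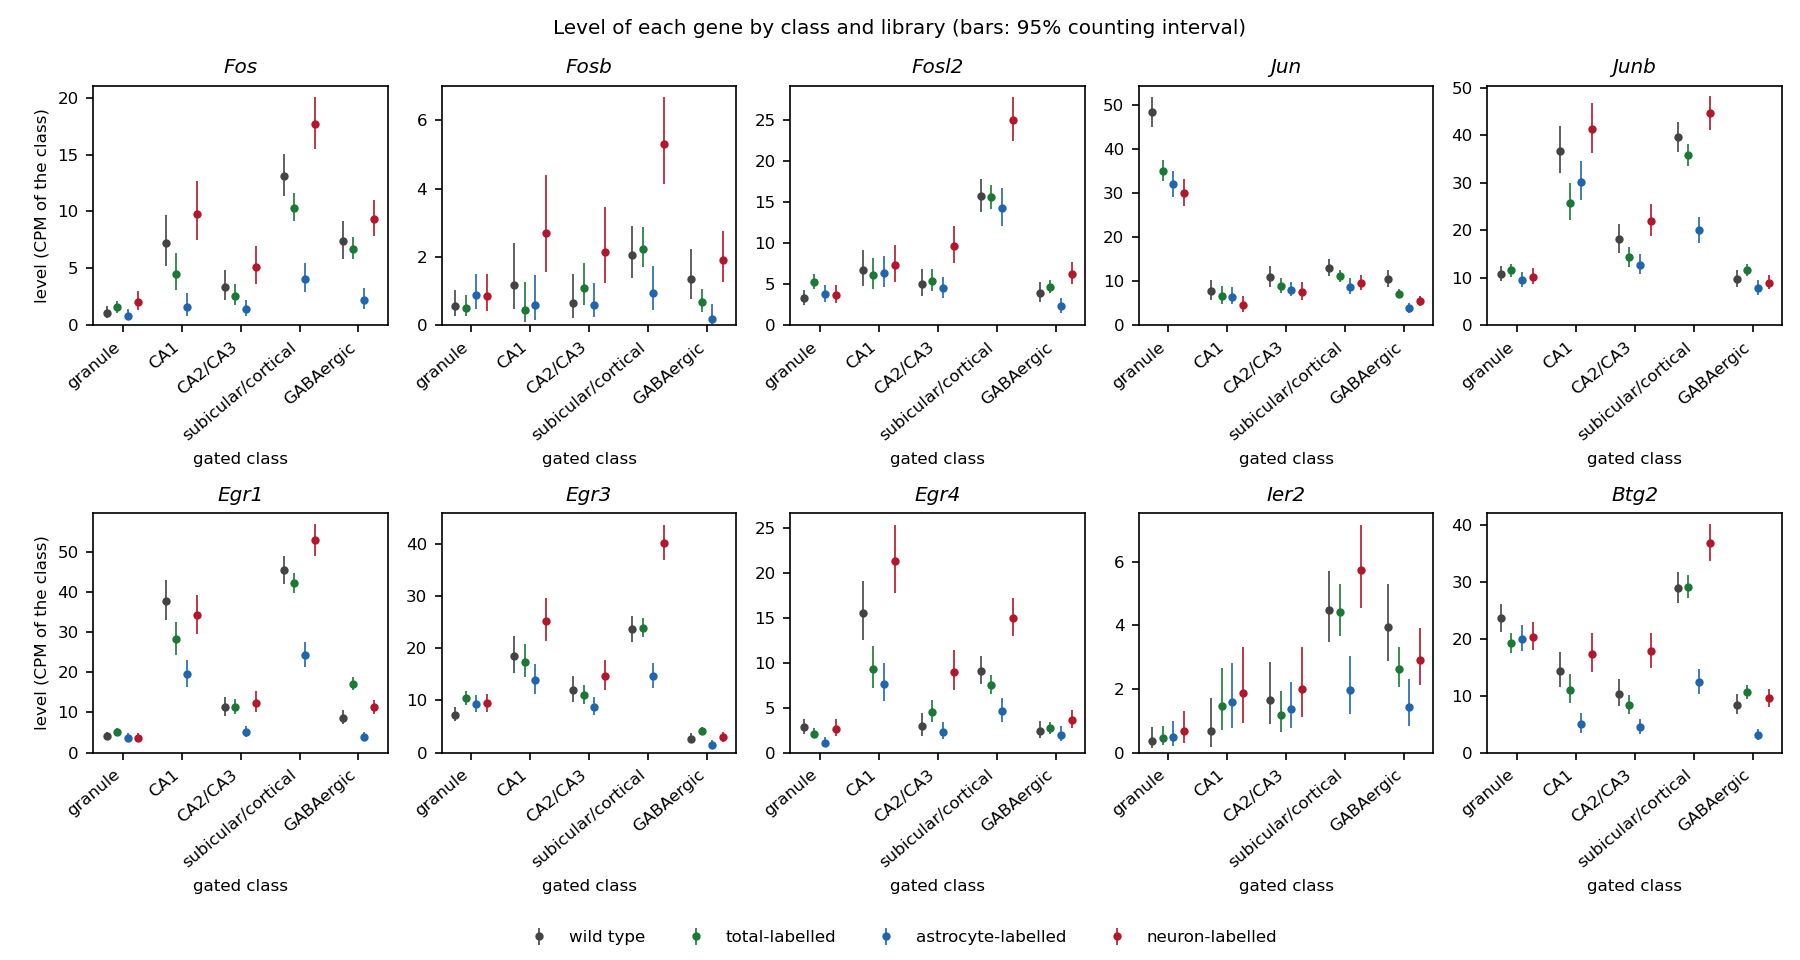
Level of each gene in CPM of the class (vertical axis, linear) in 5 gated classes (horizontal axis) and 4 libraries (colours), with 95% Poisson intervals of the counts. Fos in subicular or cortical nuclei runs from 4.05 CPM in the astrocyte-labelled library to 17.7 in the neuron-labelled library, and Jun stands highest in granule nuclei of wild type at 48.5.

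Fos, the inducible partner of Jun proteins in AP-1 (chromosome 12, 85473890 to 85477273, 4 exons), was most abundant in the subicular or cortical class. There it stood at 13.1, 10.3, 4.05 and 17.7 CPM, from 198, 274, 43 and 240 UMIs. In CA1 nuclei it stood at 7.19, 4.49, 1.58 and 9.81 CPM. The astrocyte-labelled value was the lowest and the neuron-labelled value the highest in 5 of 5 classes, and the astrocyte-labelled interval overlapped no other library's in the subicular or cortical class. The log2 ratio of astrocyte-labelled to wild type was -1.69 (-2.20 to -1.21) in subicular or cortical nuclei, -2.19 (-3.29 to -1.21) in CA1, -1.27 (-2.27 to -0.32) in CA2/CA3 and -1.74 (-2.44 to -1.09) in GABAergic nuclei. In granule nuclei Fos was sparse in every library, with 17, 37, 12 and 27 UMIs, or 1.04, 1.56, 0.813 and 2.06 CPM. The astrocyte-labelled ratio there, -0.35 (-1.55 to 0.80), was not detectable at this depth, and the neuron-labelled one was 0.99, with an interval that begins at 0.06.

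Fosb, a Fos relative whose truncated product accumulates with repeated stimulation (chromosome 7, 19302696 to 19310051, 4 exons), gave few UMIs. In subicular or cortical nuclei it stood at 2.05, 2.22, 0.941 and 5.30 CPM, from 31, 59, 10 and 72 UMIs. The neuron-labelled value lay apart from the others, with a log2 ratio to wild type of 1.37 (0.75 to 2.03). In the other 4 classes the libraries gave between 2 and 28 UMIs each.

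Fosl2 encodes Fra-2, a Fos family protein without the strong activation domain of Fos (chromosome 5, 32135801 to 32157842, 4 exons). Its subicular or cortical levels were 15.7, 15.6, 14.3 and 25.0 CPM, and its CA2/CA3 levels were 4.99, 5.36, 4.47 and 9.63 CPM. The first 3 libraries lay close together in both classes and the neuron-labelled library above them, by a log2 ratio to wild type of 0.67 (0.43 to 0.92) and 0.95 (0.37 to 1.55). In granule nuclei it was the total-labelled library that stood highest, at 3.29, 5.27, 3.80 and 3.66 CPM, and its ratio was 0.68 (0.21 to 1.17). Oligodendrocyte-gated nuclei of that library held Fosl2 at 4.54 CPM from 24 UMIs, against 1.62 from 2 in wild type, and the part of this was not tested.

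Jun, the single-exon partner of Fos proteins (chromosome 4, 95049034 to 95052222), was most abundant in granule nuclei. It stood there at 48.5, 35.0, 32.0 and 30.1 CPM, from 796, 830, 472 and 394 UMIs. Wild type lay above the 3 knockout libraries, whose log2 ratios were -0.47 (-0.61 to -0.33), -0.60 (-0.77 to -0.43) and -0.69 (-0.87 to -0.51). In GABAergic nuclei Jun stood at 10.4, 7.03, 3.81 and 5.36 CPM, again with wild type highest, and the ratios were -0.56 (-0.91 to -0.22), -1.45 (-1.98 to -0.94) and -0.96 (-1.39 to -0.53). The 3 comparisons share the wild-type library, so a high wild-type value enters all of them. The gene Junos overlaps Jun on the opposite strand, and no source used here says whether counting used strand, so their reads cannot be told apart.

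Junb, a Jun family protein that can restrain Jun (chromosome 8, 84974484 to 84978718, 1 exon), stood at 39.6, 35.8, 20.0 and 44.6 CPM in subicular or cortical nuclei and at 36.8, 25.8, 30.2 and 41.3 in CA1. The astrocyte-labelled library was low in the first class, with a log2 ratio of -0.99 (-1.22 to -0.76), and less so in CA1, at -0.28 (-0.56 to -0.00). In CA1 the total-labelled library was the lowest, at -0.51 (-0.81 to -0.22). In granule nuclei the 4 values lay between 9.56 and 11.5 CPM and every ratio interval held 0. Prdx2 overlaps Junb on the opposite strand.

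Egr1, also known as Zif268, a zinc finger factor needed for lasting forms of hippocampal plasticity, stood at 45.4, 42.3, 24.3 and 52.9 CPM in subicular or cortical nuclei, from 687, 1126, 258 and 718 UMIs. In CA1 it stood at 37.8, 28.3, 19.5 and 34.2 CPM, and in CA2/CA3 at 11.2, 11.3, 5.15 and 12.4. The astrocyte-labelled library was the lowest in each of these classes, with log2 ratios of -0.90 (-1.12 to -0.69), -0.96 (-1.27 to -0.64) and -1.13 (-1.62 to -0.64). In granule nuclei the 4 libraries lay between 3.66 and 5.06 CPM and no ratio interval excluded 0.

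In GABAergic nuclei Egr1 stood at 8.70, 17.2, 3.89 and 11.3 CPM, from 97, 464, 46 and 167 UMIs. The total-labelled value was the highest, with a log2 ratio to wild type of 0.98 (0.66 to 1.31), while in CA1 nuclei the ratio of the same libraries was -0.42 (-0.70 to -0.14). Oligodendrocyte-gated nuclei of the total-labelled library held Egr1 at 17.0 CPM from 90 UMIs, against 0.811 CPM from 1 UMI in wild type. Within the GABAergic gate the 6 excitatory markers summed to 305, 418, 337 and 330 CPM, the 6 oligodendrocyte markers to 36.5, 63.3, 27.3 and 39.5, and the 6 medium spiny neuron markers to 873, 819, 1093 and 812. The part of these in the Egr1 difference was not tested. By subtype the ratio was 0.91 (0.20 to 1.67) in somatostatin, 0.89 (-0.33 to 2.27) in parvalbumin, 1.00 (0.29 to 1.78) in Vip, 0.24 (-1.61 to 2.39) in Lamp5 and 0.05 (-1.40 to 1.70) in CCK-type nuclei, so the interval lay off 0 in 2 of 5. In that order the total-labelled subtypes held 70, 22, 90, 9 and 15 Egr1 UMIs, beside 464 in the class. The subtypes thus cover only a part of the class, and the part of the other GABAergic nuclei in the difference was not tested.

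Egr3, an activity-induced Egr factor (chromosome 14, 70077203 to 70082614, 3 exons), stood at 23.7, 23.9, 14.7 and 40.2 CPM in subicular or cortical nuclei. The astrocyte-labelled library lay below the wild-type and total-labelled pair and the neuron-labelled library above it, at log2 ratios to wild type of -0.69 (-0.97 to -0.41) and 0.76 (0.57 to 0.96). In granule nuclei the order was different: Egr3 stood at 7.25, 10.5, 9.36 and 9.46 CPM, lowest in wild type, with a total-labelled ratio of 0.53 (0.21 to 0.86). Oligodendrocyte-gated nuclei held Egr3 at 12.1 CPM from 64 UMIs in the total-labelled library against 3.24 from 4 in wild type, and the part of this in the granule and GABAergic Egr3 ratios was not tested.

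Egr4 (chromosome 6, 85511121 to 85513589, 2 exons) was the member with its highest mean level in CA1 nuclei, where it stood at 15.5, 9.27, 7.59 and 21.3 CPM. In CA2/CA3 nuclei it stood at 2.94, 4.51, 2.32 and 8.96 CPM, from 23, 58, 27 and 67 UMIs. The neuron-labelled library was highest in both, with log2 ratios of 0.46 (0.06 to 0.86) and 1.61 (0.91 to 2.36). The astrocyte-labelled ratio was -1.03 (-1.55 to -0.53) in CA1 and -1.46 (-2.41 to -0.59) in granule nuclei, there from 15 UMIs against 46.

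Ier2, a single-exon gene of rapid induction (chromosome 8, 84661331 to 84662852), had 100 or more UMIs over the 4 libraries in 2 classes. It stood at 4.49, 4.44, 1.98 and 5.74 CPM in subicular or cortical nuclei and at 3.94, 2.63, 1.44 and 2.92 in GABAergic nuclei. The astrocyte-labelled library was lowest in both, at log2 ratios of -1.19 (-1.97 to -0.46) and -1.46 (-2.36 to -0.62).

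Btg2 (chromosome 1, 134075170 to 134079120, 2 exons) stood at 29.0, 29.1, 12.3 and 36.8 CPM in subicular or cortical nuclei, 14.4, 11.0, 5.01 and 17.3 in CA1, and 10.4, 8.31, 4.47 and 17.8 in CA2/CA3. The astrocyte-labelled library lay lowest in all 3 classes, with log2 ratios of -1.23 (-1.52 to -0.95), -1.52 (-2.13 to -0.94) and -1.21 (-1.74 to -0.69). In granule nuclei, which also hold much Btg2, the levels of 23.6, 19.2, 20.0 and 20.4 CPM were highest in wild type, with knockout ratios of -0.29 (-0.49 to -0.09), -0.24 (-0.46 to -0.01) and -0.21 (-0.44 to 0.02).

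Ordered by the mean of the 4 libraries, the summed level of the members was highest in subicular or cortical nuclei, at 184 ± 60.4 CPM (SD, n = 4 libraries of different genotype). CA1 nuclei followed at 129 ± 33.1, granule nuclei at 89.7 ± 9.30, CA2/CA3 nuclei at 74.0 ± 21.9 and GABAergic nuclei at 54.2 ± 17.8. Each class's range over libraries overlapped that of the next. Within wild type, the total- and the astrocyte-labelled library alone the order was the same, though total-labelled CA2/CA3 and GABAergic nuclei were close, at 68.4 and 67.8 CPM. In the neuron-labelled library CA2/CA3 nuclei stood above granule nuclei, at 102 against 83.7 CPM. Jun was the member with its highest mean in granule nuclei, at 36.4 ± 8.31 CPM. All its granule values lay above those of the next class, subicular or cortical nuclei at 10.6 ± 1.89. Egr1 and Fos were at their lowest in granule nuclei, at 4.13 ± 0.646 and 1.37 ± 0.558 CPM, and the Egr1 range there, up to 5.06 CPM, lay below those of CA2/CA3, CA1 and subicular or cortical nuclei but overlapped that of GABAergic nuclei, which begins at 3.89. Btg2 had its second place in granule nuclei, at 20.8 ± 1.91 CPM, above the range of CA1 nuclei, 11.9 ± 5.26. Jun and Btg2 had higher means in granule than in CA2/CA3 nuclei, where they stood at 8.84 and 10.2 CPM. Each other member had a lower mean in granule nuclei, so the place of the granule sum above that of CA2/CA3 depends on Jun and Btg2. Fosl2 set the subicular or cortical class apart, at 17.7 ± 4.96 CPM against 6.59 ± 0.521 in CA1.

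For counts of members against wild type, the same minimum of 100 UMIs was kept, which leaves 42 pairs of member and class, and a gene was called at 1.5-fold. A call takes no account of the counting interval. Among calls, this interval held 0 for Fos in neuron-labelled CA2/CA3 (-0.14 to 1.39) and total-labelled CA1 nuclei (-1.39 to 0.02). It also held 0 for Egr3 in astrocyte-labelled GABAergic nuclei (-1.71 to 0.13). Of the 113 Fos UMIs in CA2/CA3 nuclei, 38 came from the neuron-labelled library. In the astrocyte-labelled library 24 of the 42 were called lower and 0 higher, beside 4.31% and 2.65% of 64802 pairs over all genes. Of the 42, 40 lay below wild type, where the median log2 ratio over all genes was between -0.06 and -0.02 by class. In the neuron-labelled library 9 were called higher and 3 lower, beside 2.52% and 5.07% of all pairs, and the 3 lower ones were all Jun. In the total-labelled library 3 were called higher and 3 lower, beside 3.76% and 5.37% of all pairs of gene and class. Of the nuclei of this library 83.5% were called male, nearly all of those given a sex. In male nuclei alone, which also leaves out nuclei given no sex, 5 of 36 were higher and 1 lower, beside 4.74% and 5.03%. At a fold of 2, with nuclei of both sexes, none was called either way, beside 1.33% and 1.17%. The 3 comparisons share the wild-type library. Marker cuts doubled in score left 12 to 87 nuclei per library in the granule, CA1 and subicular or cortical gates and none in CA2/CA3. Of 26 pairs past 1.5-fold with an interval off 0, 5 then turned direction. Among them was Fos of the astrocyte-labelled subicular or cortical class, at a log2 ratio of 0.20.

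The astrocyte-labelled counts stood far above the share of all genes called in the same class and direction in 4 of 5 classes. The members were chosen with earlier results of these data known, so this excess is a description and not independent support. In subicular or cortical nuclei 8 of 10 members were called lower (all but Fosl2 and Jun), beside 4.17% of 13776 genes, and in male nuclei alone 5 of 9, beside 5.28%. In GABAergic nuclei it was 7 of 9 (all but Junb and Egr4), beside 5.66%. Markers of Vip interneurons summed in the GABAergic gate to 315, 196, 107 and 156 CPM, lowest in the same library. This subtype had the highest mean summed level of the members, and the part of its markers in the GABAergic count was not tested. In CA1 nuclei 4 of 8 were called lower (Fos, Egr1, Egr4 and Btg2), beside 3.81%, and in CA2/CA3 nuclei 3 of 8 (Fos, Egr1 and Btg2), beside 2.94%. In granule nuclei it was 2 of 7 (Jun and Egr4), beside 4.74%. In male nuclei alone it was 0 of 6 in granule nuclei (beside 5.77%), 7 of 9 in GABAergic (6.33%), 4 of 5 in CA1 (5.1%) and 3 of 7 in CA2/CA3 nuclei (4.35%). With all nuclei no member was called higher in any class. The shares of genes called higher were 2.66%, 2.81%, 2.31%, 2.18% and 3.20% in subicular or cortical, GABAergic, CA1, CA2/CA3 and granule nuclei. The median log2 ratio of the members that passed was -0.97, -1.14, -0.68, -0.49 and -0.17 in the same order of classes, against medians over all genes between -0.06 and -0.02.

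The neuron-labelled counts differed between all nuclei and male nuclei. In CA2/CA3 nuclei 4 of 8 members were called higher (Fos, Fosl2, Egr4 and Btg2), beside 2.97% of genes, and in subicular or cortical nuclei 4 of 10 (Fosb, Fosl2, Egr3 and Egr4), beside 2.11%. In male nuclei alone the first count was 2 of 7 (Fosl2 and Egr4), beside 6.24%, and the second 0 of 9, beside 3.7%, with Egr4 at -0.18. In GABAergic nuclei 1 of 9 was called higher (Fosl2, beside 2.69%), and in CA1 and granule nuclei none was (beside 2.60% and 2.27%). In male nuclei it was 3 of 9 in GABAergic (beside 3.48%), 2 of 5 in CA1 (4.65%) and 0 of 6 in granule nuclei (3.24%). Jun was called lower in CA1, granule and GABAergic nuclei, beside 5.08%, 4.83% and 6.26% of genes, and no member was called lower in CA2/CA3 or in subicular or cortical nuclei, beside 4.85% and 4.28%. In male nuclei alone 0 of 5 were called lower in CA1 (beside 4.87%) and 0 of 6 in granule nuclei (4.61%). In GABAergic nuclei it was then 1 of 9 (Ier2, 6.4%), in CA2/CA3 1 of 7 (Egr1, 4.94%) and in subicular or cortical nuclei 0 of 9 (4.61%). The median log2 ratio of the members that passed was 0.44 in CA2/CA3, 0.39 in subicular or cortical, 0.21 in CA1, 0.17 in GABAergic and -0.07 in granule nuclei.

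The total-labelled library had few members called. In GABAergic nuclei 2 of 9 were called higher (Egr1 and Egr3), beside 4.15%, and 1 lower (Ier2), beside 6.90%. In CA1 nuclei 2 of 8 were called lower (Fos and Egr4), beside 4.59%, and none higher, beside 4.41%. In granule nuclei 1 of 7 was called higher (Fosl2), beside 3.97%, and none lower, beside 5.57%. No member was called in either direction in CA2/CA3 nuclei, beside 3.78% higher and 4.94% lower, or in subicular or cortical nuclei, beside 2.60% and 4.62%. Egr4 in CA2/CA3 nuclei, at a log2 ratio of 0.62 (-0.10 to 1.38), missed the fold once the added count was included. In male nuclei alone 0 of 5 were called lower in CA1 (beside 4.26%). In granule nuclei 2 of 6 were then higher (Fosl2 and Egr3, 4.69%). In GABAergic nuclei 3 of 9 were higher (Egr1, Egr3 and Btg2, 4.49%) and 1 lower (Ier2, 6.66%). None was called in CA2/CA3 (5.76% higher and 4.45% lower) or in subicular or cortical nuclei (3.44% and 4.5%).

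**Figure D2:**
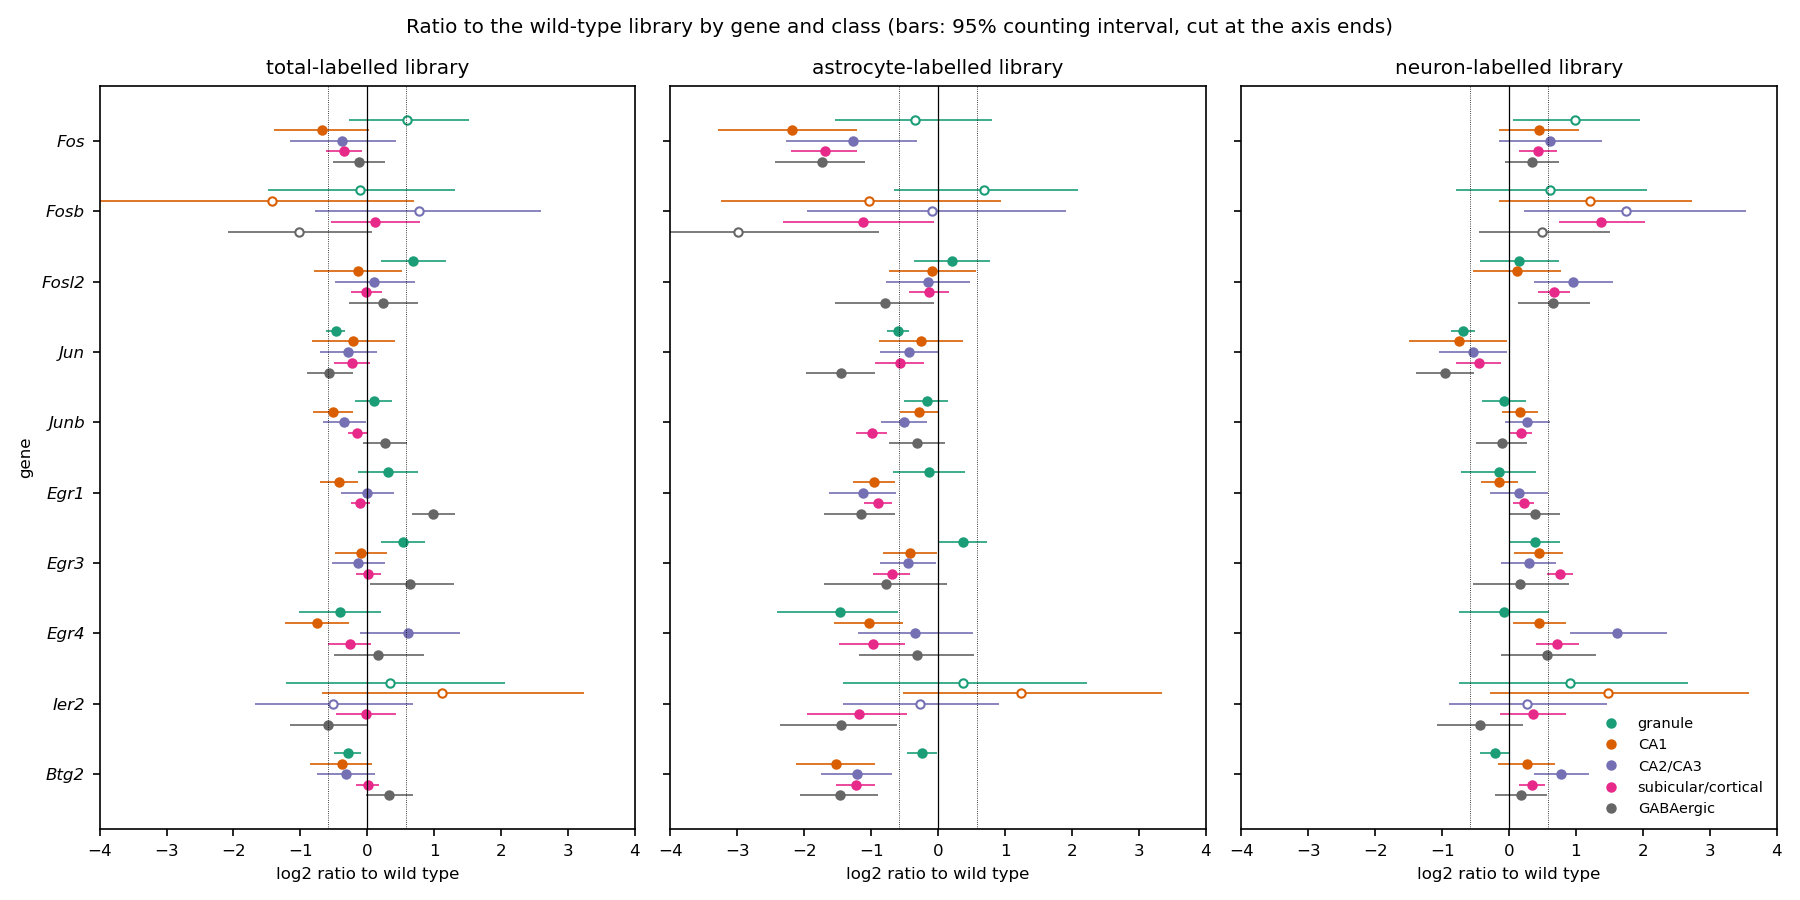
Log2 ratio of each knockout library to wild type (horizontal axis, one panel per library) for the 10 genes (vertical axis) and 5 classes (colours), with 95% conditional binomial intervals, open points where a gene had under 100 UMIs over the 4 libraries, and dotted lines at 1.5-fold. Most astrocyte-labelled points lie left of 0 (40 of the 42 filled points), and the neuron-labelled Jun points all lie left of 0 while 30 of the 42 filled points lie right of it.

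Nuclei of each sex in a library come from different animals, which gives a view within the libraries that hold both. The summed level in male nuclei of subicular or cortical class was 201 CPM in wild type, 181 in total-labelled, 119 in astrocyte-labelled and 207 in neuron-labelled. In female nuclei it was 196 in wild type, 95.9 in astrocyte-labelled and 314 in neuron-labelled. The astrocyte-labelled library thus lay below wild type in nuclei of each sex, at log2 ratios of -0.75 (-0.89 to -0.60) in male and -1.03 (-1.20 to -0.86) in female nuclei. The neuron-labelled library lay above wild type in female nuclei, at 0.68 (0.58 to 0.79), and not detectably so in male nuclei, at 0.04 (-0.07 to 0.16).

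In GABAergic nuclei the astrocyte-labelled sum was 24.8 CPM in male and 25.2 in female nuclei, against 49.4 and 62.9 in wild type. For 8 of the 9 members with 100 UMIs there, both astrocyte-labelled values lay below both wild-type values, beside 30.8% of all genes with as many UMIs. This held for 9 of 10 in subicular or cortical nuclei (beside 26%), 7 of 8 in CA2/CA3 (24.5%), 5 of 8 in CA1 (24.1%) and 4 of 7 in granule nuclei (31%). The neuron-labelled values lay above both wild-type values for 4 of 8 members in CA1 (beside 19.9% of genes), 4 of 8 in CA2/CA3 (19.2%) and 4 of 10 in subicular or cortical nuclei (21.5%). In GABAergic nuclei it was 3 of 9 (21.5%) and in granule nuclei 2 of 7 (19.6%). They lay below both for Jun in CA1, CA2/CA3 and subicular or cortical nuclei (beside 22.3%, 23.2% and 25.2%), for Jun and Ier2 in GABAergic nuclei (29.2%) and for Jun, Egr1 and Btg2 in granule nuclei (27%). The CA2/CA3 sum was 78.0 CPM in male and 75.9 in female wild-type nuclei against 76.0 and 113 in neuron-labelled ones. The CA1 sum was 133 and 152 CPM in wild type against 169 and 162.

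**Figure D3:**
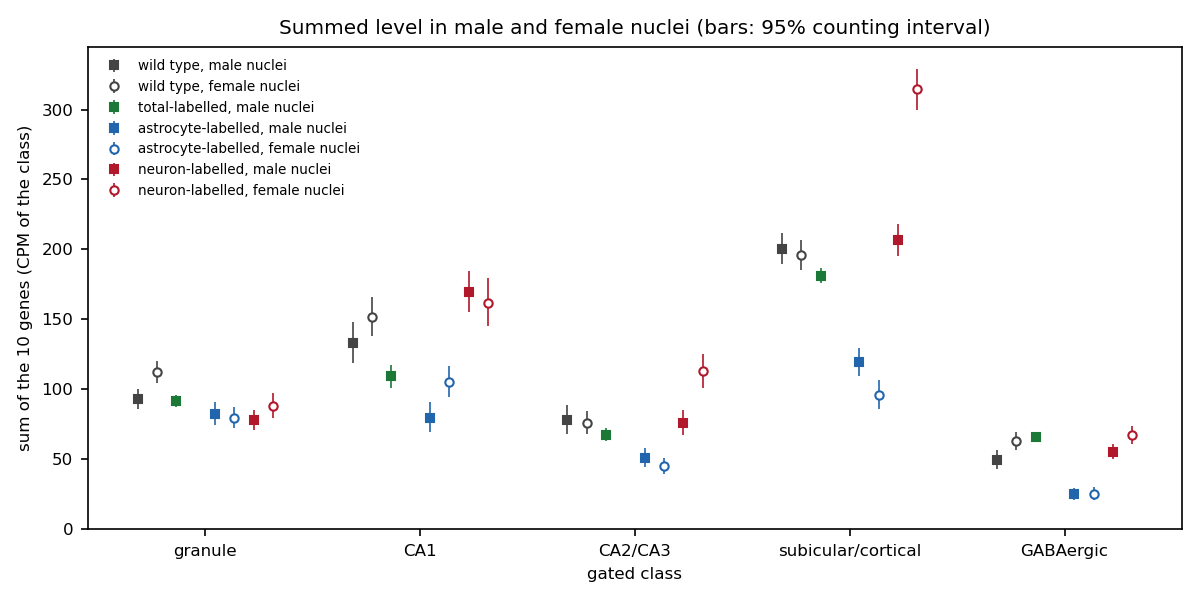
Summed level of the 10 genes in CPM of the class (vertical axis) in male (filled squares) and female (open circles) nuclei of each library and class, with 95% Poisson intervals. The female neuron-labelled point of the subicular or cortical class, 314 CPM, stands above all others, and the male one, 207, lies beside the wild-type points of 201 and 196.

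Among interneurons 9 of the 10 members had their highest mean level in Vip-gated nuclei, which largely inhibit other interneurons. No share over all genes was set beside this count. For Fosb this place rests on 1, 1, 0 and 2 UMIs and cannot be told from its Lamp5 level, from 3, 1, 0 and 0. The Vip levels of Egr3 rest on 6, 11, 1 and 3 UMIs. Those of Egr4 rest on 2, 5, 0 and 5, and those of Ier2 on 4, 13, 1 and 2. Only Egr1, with 134 UMIs over the libraries, reached in Vip nuclei the UMI minimum kept for the classes. Jun was the exception to the count, with its lowest mean in Vip nuclei, 3.12 ± 2.28 CPM against 8.94 ± 3.35 in somatostatin nuclei. The summed level in Vip nuclei was 126, 159, 47.1 and 152 CPM, from 92, 262, 14 and 79 UMIs in 107, 333, 58 and 75 nuclei. The mean over libraries, 121 ± 51.2 CPM, stood above 53.2 ± 17.6 in somatostatin, 49.8 ± 24.1 in CCK-type, 38.0 ± 10.8 in parvalbumin and 37.0 ± 16.4 in Lamp5 nuclei, but its range overlapped that of the next subtype. Junb was the member whose Vip values all lay above those of the next subtype, at 21.0 ± 3.67 CPM. Egr1 in Vip nuclei stood at 27.3, 54.6, 6.73 and 42.3 CPM from 20, 90, 2 and 22 UMIs, and Fos at 15.0, 21.8, 6.73 and 36.5.

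The astrocyte-labelled library had the lowest sum in each of the 5 subtypes, though in Lamp5 nuclei it and the neuron-labelled library gave 12 UMIs each, at 23.7 and 25.4 CPM, and the neuron-labelled ratio there was -1.22 (-2.29 to -0.24). Set against wild type, the astrocyte-labelled sum gave log2 ratios of -1.41 (-2.34 to -0.60) in Vip, -1.97 (-2.84 to -1.17) in CCK-type, -1.32 (-2.39 to -0.34) in Lamp5, -0.91 (-1.46 to -0.37) in parvalbumin and -0.72 (-1.19 to -0.26) in somatostatin nuclei. Somatostatin nuclei of the neuron-labelled library held more Fos than those of wild type, at 14.7 CPM from 46 UMIs against 5.34 from 13, a ratio of 1.46 (0.55 to 2.47). In Lamp5 nuclei, neurogliaform and related cells, Fos stood at 16.4 CPM from 10 UMIs in wild type and 2.58 from 3 in total-labelled, and was 0 in the astrocyte- and neuron-labelled libraries, where 3 counts, taken as the limit for a count of 0, would be 5.93 and 6.36 CPM. The 10 wild-type UMIs came from 2 of 72 nuclei, and 238 nuclei scored within 0.5 of the Lamp5 cut, beside 426 in the gate.

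**Figure D4:**
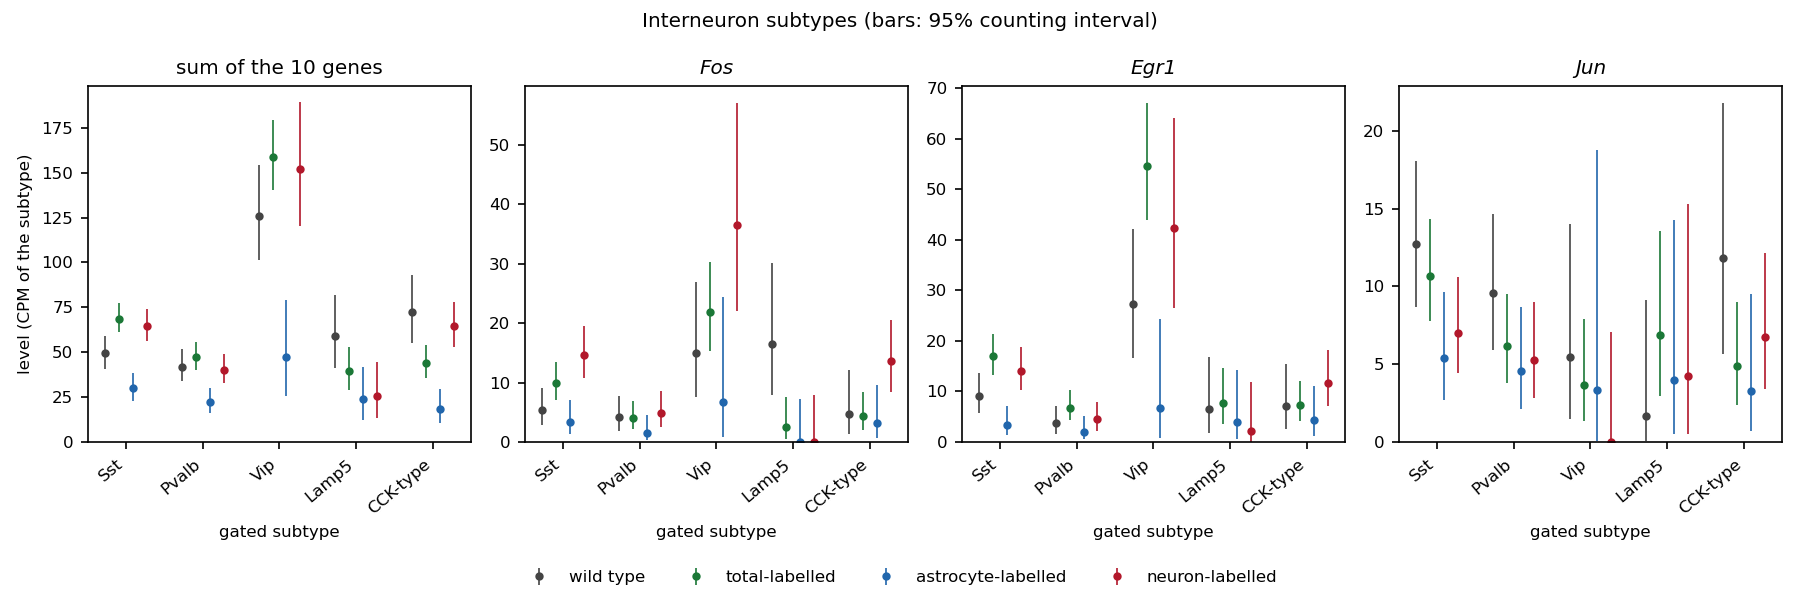
Level in CPM of the subtype (vertical axis) of the sum of the 10 genes, Fos, Egr1 and Jun in 5 gated interneuron subtypes (horizontal axis) and 4 libraries (colours), with 95% Poisson intervals. Vip nuclei reach 159 CPM for the sum in the total-labelled library, and the astrocyte-labelled sum is the lowest in each subtype.

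Nuclei were also counted one by one. At a fixed depth a share of nuclei rises with the class level as well. It therefore does not tell more nuclei holding the RNA from more RNA in each. Each nucleus was thinned to 3000 UMIs, which left out 162, 1490, 181 and 201 shallower nuclei of the 5 classes, and the share holding 2 or more of the 10 members was taken. In subicular or cortical nuclei the share was 11.5% (9.94 to 13.3), 10.8% (9.82 to 11.9), 4.92% (3.83 to 6.22) and 14.1% (12.4 to 16.0). In CA1 nuclei it was 7.69%, 5.62%, 3.13% and 9.34%, and in CA2/CA3 nuclei 3.69%, 2.42%, 0.918% and 5.04%. The astrocyte-labelled library was lowest in all 3 and its interval met no other library's in the first.

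GABAergic nuclei held 2 or more members in 1.86%, 2.98%, 0.628% and 2.46% of cases, with no difference read for the total-labelled library, as given below. Granule nuclei gave 2.82%, 2.16%, 2.03% and 2.27%, with overlapping intervals. Without thinning the shares were 36.2%, 23.8%, 15.9% and 32.8% in subicular or cortical nuclei, 30.9%, 14.2%, 14.1% and 23.5% in CA1, 22.3%, 12.7%, 10.4% and 20.5% in CA2/CA3, 14.8%, 7.52%, 9.38% and 10.3% in granule and 9.28%, 7.84%, 2.70% and 9.70% in GABAergic nuclei. Wild type then led in 4 of 5 classes, with the deepest nuclei of the 4 libraries. Counting nuclei with 3 or more members at 3000 UMIs gave 3.91%, 3.67%, 0.522% and 6.22% in subicular or cortical nuclei.

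Oligodendrocyte-gated nuclei, which are not neurons, were taken as a reference type for these shares. They are no low reference for Jun, which stood in them at 23.5 CPM from 29 UMIs in wild type and 20.4 from 108 in total-labelled, above its mean in each class but granule nuclei. They are shallow, with median UMIs of 2106, 1455, 2256 and 1937 against 9125, 5882, 6880 and 8360 in subicular or cortical nuclei, so the comparison was made at 1000 UMIs. Of the oligodendrocyte nuclei 0 of 383, 7 of 1507, 0 of 44 and 0 of 66 then held 2 or more members, that is 0.464% in the total-labelled library and up to 0.783%, 6.82% and 4.55% in the others, where 3 counts were taken as the limit for a count of 0. Subicular or cortical nuclei gave 2.61%, 2.05%, 0.872% and 3.81%, of which the astrocyte- and neuron-labelled values lie under the wide limits of their few oligodendrocyte nuclei. CA1 nuclei gave 1.91%, 1.07%, 0.983% and 1.84%, CA2/CA3 nuclei 0.858%, 0.674%, 0.228% and 2.05%, and GABAergic nuclei 0.813%, 0.564%, 0.0678% and 0.463%. Granule nuclei gave 0.428%, 0.364%, 0.452% and 0.250%. In the total-labelled library the granule share lay below the oligodendrocyte share, whose exact interval, 0.187% to 0.955%, overlapped those of the CA1, CA2/CA3 and GABAergic shares. The interval of its subicular or cortical share, 1.63% to 2.56%, lay above. At 3000 UMIs 30 of the 531 oligodendrocyte nuclei of that library deep enough to count, from 1881, held 2 or more members, 5.65% (3.84 to 7.97), at or above its granule, CA1, CA2/CA3 and GABAergic shares at that depth. No difference from wild type is read from those 4 shares of the total-labelled library. Its subicular or cortical share of 10.8% lay above.

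Members were found together in the same nuclei. Of subicular or cortical nuclei with a Fos UMI at 3000 UMIs, 37 of 54, 76 of 102, 4 of 14 and 58 of 79 also held another member, or 68.5%, 74.5%, 28.6% and 73.4%. Of those without Fos it was 37.2%, 32.4%, 24.7% and 32.5%. In the wild-type, total- and neuron-labelled libraries the intervals with and without Fos did not overlap. In the astrocyte-labelled library they did, with 14 Fos nuclei to count. Egr1 was held by 29.6%, 39.2%, 7.14% and 39.2% of the nuclei with Fos and by 10.6% to 12% of those without outside the astrocyte-labelled library and 6.86% in it. Jun was held by 5.56%, 3.92%, 0% and 5.06% with Fos and by 3.78%, 3.69%, 2.94% and 2.78% without, so its shares lay close together. The gate mixes types of nucleus, and the part of this in the joint holding was not tested.

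**Figure D5:**
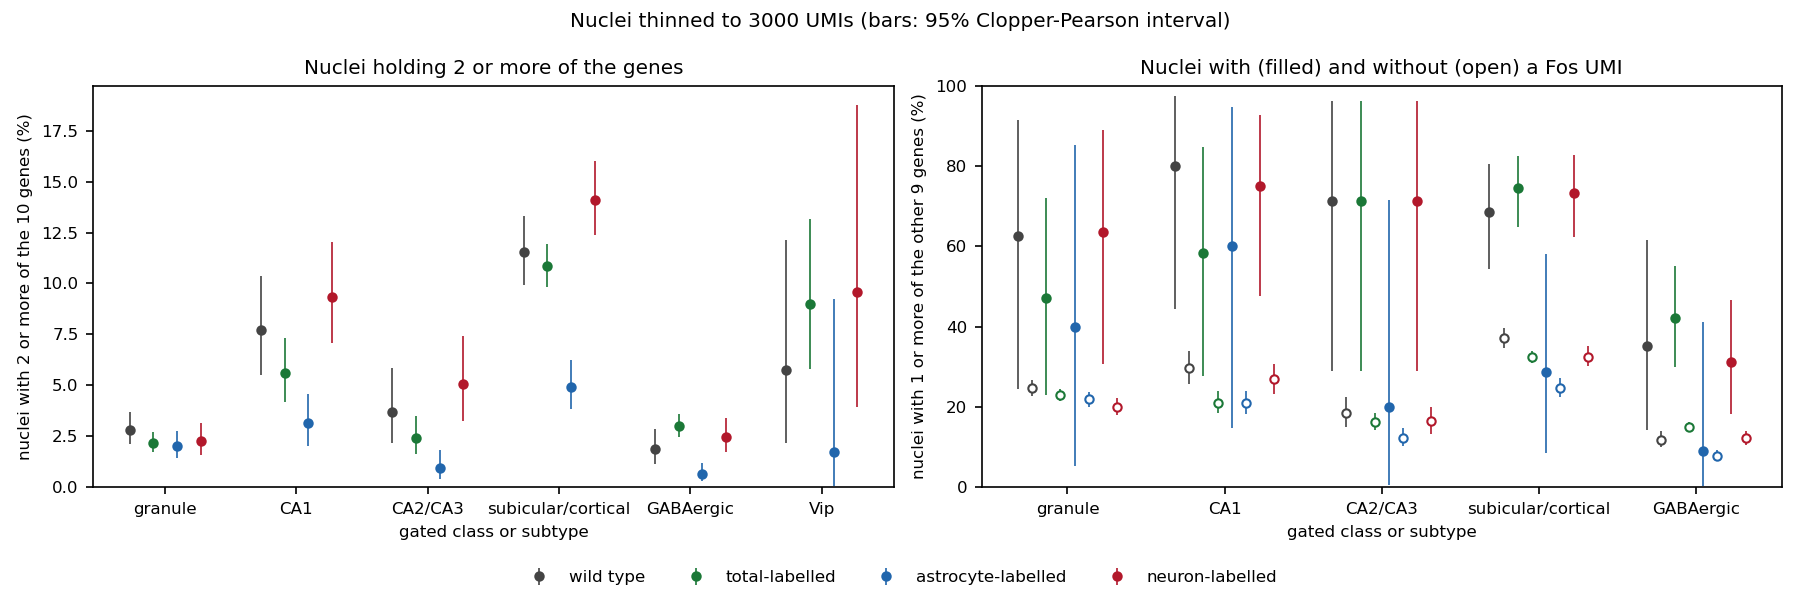
Left, share of nuclei holding 2 or more of the 10 genes (percent) by class, with Vip interneurons, and library; right, share of nuclei with (filled) and without (open) a Fos UMI that hold 1 or more of the other 9 genes. All nuclei were thinned to 3000 UMIs and bars are 95% Clopper-Pearson intervals. The astrocyte-labelled subicular or cortical share of 4.92% lies below the other 3 libraries, and Fos nuclei of wild type hold another member in 68.5% of cases against 37.2% without Fos.

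Single nuclei held several UMIs of a member. Fos reached at most 4, 3, 2 and 4 UMIs in 1 subicular or cortical nucleus, and 11, 9, 0 and 16 nuclei held 3 or more. Egr1 reached 9, 8, 6 and 8 UMIs, with 64, 74, 13 and 72 nuclei at 3 or more. The libraries differ in number of nuclei and in depth, so these counts are not compared between them.

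Other genes of the same pathways were compared as lists, by counts at 1.5-fold among members with 100 UMIs. The lists too were chosen with earlier results of these data known, so their counts are descriptions. Of 10 other AP-1 and Egr family genes and Egr co-repressors, 8 were listed in all libraries and 4 or 5 passed per class. Egr2, a close relative of Egr1 and Egr3, stood at 1.78, 1.32, 0.471 and 2.58 CPM in subicular or cortical nuclei, from 27, 35, 5 and 35 UMIs, the 1 of 5 called lower in the astrocyte-labelled library, beside 4.17% of all genes. Nab2, a co-repressor of Egr proteins, stood at 1.34, 3.92, 3.55 and 1.97 CPM in GABAergic nuclei and was called higher there in the total- and astrocyte-labelled libraries, the 1 of 4 in each, beside 4.15% and 2.81%. In CA2/CA3 nuclei it was called higher in the total- and neuron-labelled libraries, at log2 ratios of 0.78 and 1.07, beside 3.78% and 2.97%. Jund, the constitutive Jun protein, stood at 16.7, 12.9, 9.73 and 11.1 CPM in GABAergic nuclei and was called lower in the astrocyte- and neuron-labelled libraries, again 1 of 4, beside 5.66% and 6.26%.

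The factors that act upstream of the members include Srf, the Elk proteins, Creb1 and the Crtc and Mef2 genes. Of 19 genes 17 were listed in all libraries, 16 or 17 passed per class, and at most 2 were called in 1 direction in any class and library, beside 2.11% to 6.90% of all genes. The list's median log2 ratio lay between -0.07 and 0.01, with single genes apart from it in both directions. Mef2c stood at 0.59, -0.64 and -0.80 in total-, astrocyte- and neuron-labelled CA1 nuclei and at 0.76, -0.53 and -0.89 in CA2/CA3. Srf stood at 0.77 and 0.81 in astrocyte- and neuron-labelled granule nuclei and at -0.85 and -1.13 in total- and neuron-labelled subicular or cortical nuclei. In the total-labelled library Crtc2 stood at -1.29 in CA1 and Elk3 at -1.38 in CA2/CA3 nuclei. Other rapid response genes differed by class. In subicular or cortical nuclei 4 of 12 were called lower in the astrocyte-labelled library, beside 4.17% of all genes, and 2 higher in the neuron-labelled library, beside 2.11%, with medians of -0.41 and 0.40 against -0.03 and -0.02 over all genes. In the astrocyte-labelled library 1 of 10 was called lower in GABAergic, 2 of 8 in CA1 and 1 of 7 in CA2/CA3 nuclei, beside 5.66%, 3.81% and 2.94% of genes. In its granule nuclei 2 of 9 were called higher (Klf6 at 1.08 and Gadd45g at 0.74), beside 3.2%, and 1 lower (Sik1 at -0.68), beside 4.74%. In the total- and neuron-labelled libraries 2 and 1 of 9 were called higher in granule nuclei, beside 3.97% and 2.27%. At most 1 was called in each direction in CA1, CA2/CA3 and GABAergic nuclei of these libraries, beside 2.6% to 6.9% of genes. In total-labelled subicular or cortical nuclei 1 of 12 was called lower (Ier5 at -0.85), beside 4.62%. In subicular or cortical nuclei Ccn1, a secreted matrix protein gene, stood at 2.25, 3.19, 0.377 and 7.95 CPM, and Dusp1, a phosphatase that shuts off MAP kinases, at 10.6, 11.0, 5.46 and 17.4.

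Of the delayed or effector genes of activity, 17 to 19 of 20 passed per class. In the astrocyte-labelled library 6 of 18 were called lower in CA1, 6 of 17 in GABAergic and 5 of 19 in subicular or cortical nuclei, beside 3.81%, 5.66% and 4.17% of all genes, among them Pcsk1 at -1.11 in CA1 and Nr4a3 at -1.33 in GABAergic nuclei on the log2 scale. In CA2/CA3 nuclei it was 1 of 17, beside 2.94%. In GABAergic nuclei 3 of 17 were called higher in the total-labelled library, beside 4.15%, and 1 higher and 3 lower in the neuron-labelled library, beside 2.69% and 6.26%. In subicular or cortical nuclei 1 of 19 was called higher in the total-labelled library (beside 2.6%). In the neuron-labelled library 3 were higher and 2 lower there (2.11% and 4.28%). In CA2/CA3 nuclei 2 of 17 were called higher in each of these libraries (3.78% and 2.97%). In CA1 nuclei 2 of 18 were called lower in each (4.59% and 5.08%), and 1 higher in the neuron-labelled library (2.6%). In granule nuclei 6 of 18 of this list were called higher in the total-labelled library, 3 in the astrocyte-labelled library and 5 in the neuron-labelled library, beside 3.97%, 3.2% and 2.27% of all genes, and 0 were called lower in any of them. Nr4a3 stood there at 5.85, 16.8, 6.64 and 14.1 CPM, Npas4 at 1.40, 3.33, 2.10 and 3.20, and Arc at 1.89, 4.22, 2.98 and 3.81.

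The genes whose pattern most resembled the summed members were ranked by Pearson correlation over 20 groups of library and class, each class centred on its mean over the libraries, among 10928 genes. Those at the head were Fdft1 (r = 0.90), Arl5b (0.89), Slc35a5 (0.89) and Rheb (0.88). Fdft1, squalene synthase, stood at 46.1, 41.9, 26.7 and 45.5 CPM in subicular or cortical nuclei and at 28.2, 31.2, 16.5 and 28.7 in GABAergic nuclei, lowest in the astrocyte-labelled library as the members were. The groups share libraries and are not independent, so the r values are descriptions. Among the members the r with their own sum, which includes them, ran from 0.36 for Jun to 0.96 for Btg2.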

How the data were processed

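Nuclei of mouse hippocampus were profiled for RNA with a multiome kit, 1 library per genotype. The deposited values are raw UMI counts per gene and nucleus, made by the authors with Cell Ranger ARC 2.0.0 on mm10, per the submitters' processing notes. No source used here gives the annotation or the use of strand. The members and the gene lists were chosen with earlier results of these data known.

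Nuclei with at least 500 genes and at most 5% mitochondrial UMIs were kept. Classes were gated on the summed log level of marker genes, none of them a member, at cuts placed in the valleys of the pooled scores. Nuclei past the cuts of several classes were set aside as mixed (300 in wild type, 1745 in total-, 172 in astrocyte- and 89 in neuron-labelled) and 27.5%, 35.0%, 35.5% and 32.1% stayed ungated. No doublet caller was run, and leaving out the 10% of nuclei with most UMIs was an alternative. Nuclei within 0.5 of a cut numbered 954 for granule, 4776 for CA1, 1491 for CA2/CA3, 4569 for subicular or cortical and 1861 for GABAergic nuclei. Library totals ran from 81623644 to 193307038 UMIs.

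Counts were summed per library and class. Levels are CPM with exact Poisson intervals, ratios have exact conditional binomial intervals and shares Clopper-Pearson intervals, all at 95% and covering counting error only. Ratios over all genes, used for calls and list medians, added a pseudocount of 1 count and needed 100 UMIs of a gene in the class, all libraries added. The script was tested on simulated data. The genes named are the members, the furthest from wild type of each list and the 5 most like the members' sum, of which 1 is not reported here. Alternatives were TMM scaling (edgeR 4.0.16 in R 4.3.3), stricter filters and gates, each sex, thinning, another fold and another UMI minimum. Other tools were numpy 2.4.6, scipy 1.17.1, pandas 2.3.3 and matplotlib 3.10.9. Gene positions are from GENCODE on GRCm38 and upstream sequences from RefSeq.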

Additional observations from a re-analysis of the deposited data

Results flagged for a closer look

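Flagged here are 9 cases in which a member's log2 ratio to wild type took opposite signs in male and female nuclei. The sexes come from different animals of the same libraries. These 9 are not a full count of such cases. Egr1 of neuron-labelled CA2/CA3 nuclei, which is not among them, was called lower in male nuclei and stood at 0.15 in all nuclei. The differences between the sexes were not tested. In subicular or cortical nuclei the neuron-labelled ratio was -0.18 in male and 1.18 in female nuclei for Egr4, -0.19 and 1.08 for Ier2, and -0.24 and 0.89 for Btg2. The Egr3 ratio of the neuron-labelled library in CA2/CA3 nuclei was -0.42 in male and 0.80 in female nuclei, and its Egr1 ratio in GABAergic nuclei was -0.046 and 0.69.

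CA1 nuclei of the neuron-labelled library went the other way, with 1.14 in male and -0.66 in female nuclei for Fosl2 and 1.21 and -0.064 for Btg2. For the astrocyte-labelled library the ratio was -0.68 in male and 0.037 in female nuclei for Egr3 in CA1, and 0.18 and -0.64 for Junb in granule nuclei.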

How the results depend on the processing

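With 1 library per genotype no library could be left out. No paired analysis was possible because each group is 1 library. TMM scaling, stricter nucleus filters and leaving out the 10% of nuclei with most UMIs left all 15 summed log2 ratios and all 150 ratios of single members within their counting intervals. The female-only values and those without the member with most UMIs were chosen after seeing the data, and the causes of the differences below were not tested. In male nuclei the summed ratio was -0.0218 for total- and -0.17 for astrocyte-labelled granule nuclei, 0.35 for neuron-labelled CA1, -0.038 for neuron-labelled CA2/CA3, -0.75 and 0.043 for astrocyte- and neuron-labelled subicular or cortical, and 0.42 for total-labelled GABAergic nuclei, and Egr4 of neuron-labelled subicular or cortical nuclei stood at -0.18. In female nuclei it was -0.49 for astrocyte-labelled granule, -1.03 and 0.68 for astrocyte- and neuron-labelled subicular or cortical, and -1.32 for astrocyte-labelled GABAergic nuclei. At doubled cuts the total-, astrocyte- and neuron-labelled sums were -0.29, -0.65 and 0.19 in granule, -0.27, -1.35 and -0.56 in subicular or cortical, and 0.033, -1.30 and -0.088 in GABAergic nuclei, and the total- and neuron-labelled sums -1.26 and -1.25 in CA1. Those cuts, with few nuclei, turned Jun of neuron-labelled granule to 0.082, Btg2 of astrocyte-labelled CA1 to 0.55, and in subicular or cortical nuclei Fos of astrocyte-labelled to 0.20, and Fosl2 and Egr3 of neuron-labelled to -1.97 and -0.82. No CA2/CA3 value could be had there. Thinned to 3000 UMIs, CA2/CA3 gave -0.84 and 0.19 for astrocyte- and neuron-labelled and subicular or cortical 0.27 for neuron-labelled nuclei. Without the member with most UMIs the granule sums were 0.065, -0.11 and -0.0019, the astrocyte-labelled CA1 sum -0.81 and the total-labelled GABAergic sum 0.015. At a fold of 2, members called were 2 higher and 0 lower in neuron-labelled (beside 0.475% and 0.835% of all pairs of gene and class) and 0 higher and 0 lower in total-labelled. With at least 20 UMIs (50 pairs) 2 were higher in astrocyte-labelled (beside 5.78%), 15 higher in neuron-labelled (6.02%), and 5 higher and 5 lower in total-labelled (7.08% and 9.46%). In male nuclei 5 were higher and 1 lower in total-labelled, and without the 10% of nuclei with most UMIs 1 was lower there (5.28%). Within the neuron-labelled library alone granule nuclei ranked 4 and CA2/CA3 nuclei 3 by summed level. The share of nuclei with 2 or more members, as a mean of 5 classes, was 5.52%, 4.80%, 2.33% and 6.65%. Thinned to 1000 UMIs it was 1.32%, 0.945%, 0.520% and 1.68%, without thinning 22.7%, 13.2%, 10.5% and 19.4%, and for 3 or more members 1.71%, 1.42%, 0.329% and 2.87%. In male nuclei of the neuron-labelled library it was 5.85%, below the 6.08% of wild type.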

Other observations

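Nuclei gated on medium spiny neuron markers, a striatal type, numbered 31, 1017, 8 and 5 in wild type, total-, astrocyte- and neuron-labelled, and in the total-labelled library they held Egr1 at 43.7 CPM.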
